A study of Homo sapiens with 83 samples.

Results

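SHEP MYC-OFF cells were compared between the hours named for the PER genes and those named for ARNTL, the gene for BMAL1. The PER hours were CT32, CT36, CT56 and CT60 and the ARNTL hours were CT44, CT48, CT68 and CT72, where CT is circadian time, the hours since dexamethasone. Each window held 8 libraries, 4 from each of 2 replicate time series, so the comparison used 16 of the 83 libraries analysed. The hours alone chose the libraries. They are named for clock genes whose timing in these libraries was already known, so the p-values of PER genes and ARNTL are no independent evidence that those genes oscillate.

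SHEP is a human neuroblastoma cell line, here engineered to overexpress N-MYC-ER, a fusion of the oncogene N-MYC with a hormone-binding domain that keeps it inactive until 4-hydroxytamoxifen is given. MYC-OFF cells received ethanol, the vehicle, and dexamethasone, a glucocorticoid that sets the clocks of cultured cells to a common phase. Poly(A) RNA was sequenced every 4 h from CT24 to CT76. MYC-OFF libraries in both windows share the cell line, the N-MYC-ER genotype, ethanol and dexamethasone, and differ in CT only. MYC-ON cells received 4-hydroxytamoxifen and dexamethasone. SKNAS, another human neuroblastoma line, also carried N-MYC-ER, and its MYC-OFF cells, used below for comparison, received ethanol and dexamethasone. SHEP MYC-OFF cells held MYCN transcripts at 406 to 688 TPM (transcript abundance scaled to transcript length and to a fixed library total). The authors state that SHEP cells express no N-MYC of their own and that the fusion is expressed constitutively. The mean CT was 46 h in the PER hours and 58 h in the ARNTL hours, so the windows also differ in time in culture, and a linear CT term stands in every fit unless stated.

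The mammalian clock is a feedback loop of transcription. CLOCK and BMAL1 bind E-boxes and activate the PER and CRY genes, whose proteins return to the nucleus and inhibit CLOCK and BMAL1. The REV-ERB receptors (NR1D1 and NR1D2) repress and the ROR receptors activate ARNTL through ROR elements, and the factors DBP, TEF and HLF activate, while NFIL3 represses, genes with D-boxes.

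The elements of this loop were looked up in RefSeq promoter windows (GRCh38.p14), which run from 250 bases before to 50 bases after a gene's start. Of the 21 clock genes listed, 20 matched, with 29 windows. On either strand the E-box CACGTG was in 7 of the 29 windows, a D-box (TTATGTAA or TTACGTAA, or their reverse complements) in 3 and the ROR element in 1. Of all 35116 windows, 7.26% held the E-box, 1.01% a D-box and 0.168% the ROR element. The stretches below show the matches in the clock genes with an unadjusted p under 0.05 that held one (PER1, PER2, PER3, TEF and ARNTL). They also show NR1D2, whose levels overlapped between the PER and ARNTL hours. In the 24 h cosine fit given below NR1D2 peaked at CT27.4, ahead of the PER hours. NR1D2 held a D-box and 2 E-boxes, of which only the E-box further from the start is shown. CRY1, CRY2 and DBP held none of the 3 motifs in these windows, and BHLHE40, BHLHE41 and CIART held E-boxes that are not shown. A match is a description of letters and not a binding site, and capitals mark the matched letters.
PER1, E-box, chr17:8152546-8152603, minus strand: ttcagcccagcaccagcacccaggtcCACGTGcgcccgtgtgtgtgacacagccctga
TEF, E-box before the first listed start, chr22:41367234-41367291, plus strand: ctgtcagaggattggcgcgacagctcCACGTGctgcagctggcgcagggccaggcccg
TEF, E-box before the other start, chr22:41381723-41381780, plus strand: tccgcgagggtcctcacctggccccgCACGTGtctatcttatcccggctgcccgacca
NR1D2, E-box, chr3:23945940-23945997, plus strand: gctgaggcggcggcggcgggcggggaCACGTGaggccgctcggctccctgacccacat
NR1D2, D-box, chr3:23945901-23945960, plus strand: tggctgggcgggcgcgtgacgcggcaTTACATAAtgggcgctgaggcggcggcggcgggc
PER3, D-box, chr1:7784088-7784147, plus strand: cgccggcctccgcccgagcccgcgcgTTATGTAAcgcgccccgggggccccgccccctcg
PER2, D-box at the start, chr2:238288595-238288624, minus strand: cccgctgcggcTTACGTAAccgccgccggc
ARNTL, ROR element just after the start, chr11:13277807-13277836, plus strand: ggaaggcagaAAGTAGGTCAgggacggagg

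A model with the window, the series and CT was fitted by limma to log2(TPM + 1) of 14238 genes with a mean of at least 1 TPM. With p-values adjusted by Benjamini-Hochberg, a call needed 0.05 or less and a log2 difference of 0.15 or more, and 0 genes (0%) were called. At an unadjusted p under 0.05, 785 genes (5.51%) differed, 208 (1.46%) higher and 577 (4.05%) lower in the PER hours. The 577 rested partly on 1 library: without CT60 of series 1, whose median log2 level of 3.95 was below the 4.04 to 4.18 of the other 15 libraries, 277 genes were higher and 403 lower. After median-of-ratios rescaling the split was 397 to 394, while the median difference over all genes moved from -0.025 to 0.0012. The lowest adjusted p was 0.061, for TEF, ARNTL and 1 entry with a clone name only. Each of the 16 libraries held 21837 to 22839 genes above 0. Of 12 mesenchymal neuroblastoma markers 10 passed the filter, and 1 of the list had a mean under 0.1 TPM. The list summed to 4271 to 4885 TPM in the PER hours and 4182 to 4588 TPM in the ARNTL hours. VIM alone had a mean of 3381 TPM. The epithelial markers summed to at most 2830 TPM, the immune markers to at most 62.5 TPM and the endothelial markers to at most 2.23 TPM. Of 14 adrenergic markers 5 passed the filter, GATA3 (mean 17.0 TPM), HAND2 (15.9), GATA2 (15.7), TBX2 (9.09) and CHGB (2.00), and the others, PHOX2A among them, had means under 1 TPM. The adrenergic list summed to 54.7 to 70.1 TPM in the PER hours and 56.3 to 67.0 TPM in the ARNTL hours.

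Of the 21 clock genes 16 passed the filter, and NPAS2, RORB, HLF and CIART were among those that did not. At an unadjusted p under 0.05, 7 of the 16 lay higher and 1 lower in the PER hours, beside 5.51% of all genes. These 8 were all 5 genes of the negative arm, the D-box factors TEF and DBP, and ARNTL. The hours are named for the PER genes and ARNTL, so their part of this count is no independent evidence. The others of the 8, CRY1, CRY2, TEF and DBP, belong to the same clock. The hours and lists were chosen with earlier results of these data known, so these genes are no independent evidence either. The median difference over the 16 was 0.10 on the log2 scale, against -0.025 over all genes tested. None of the 16 passed the adjusted threshold.

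**Figure D1:**
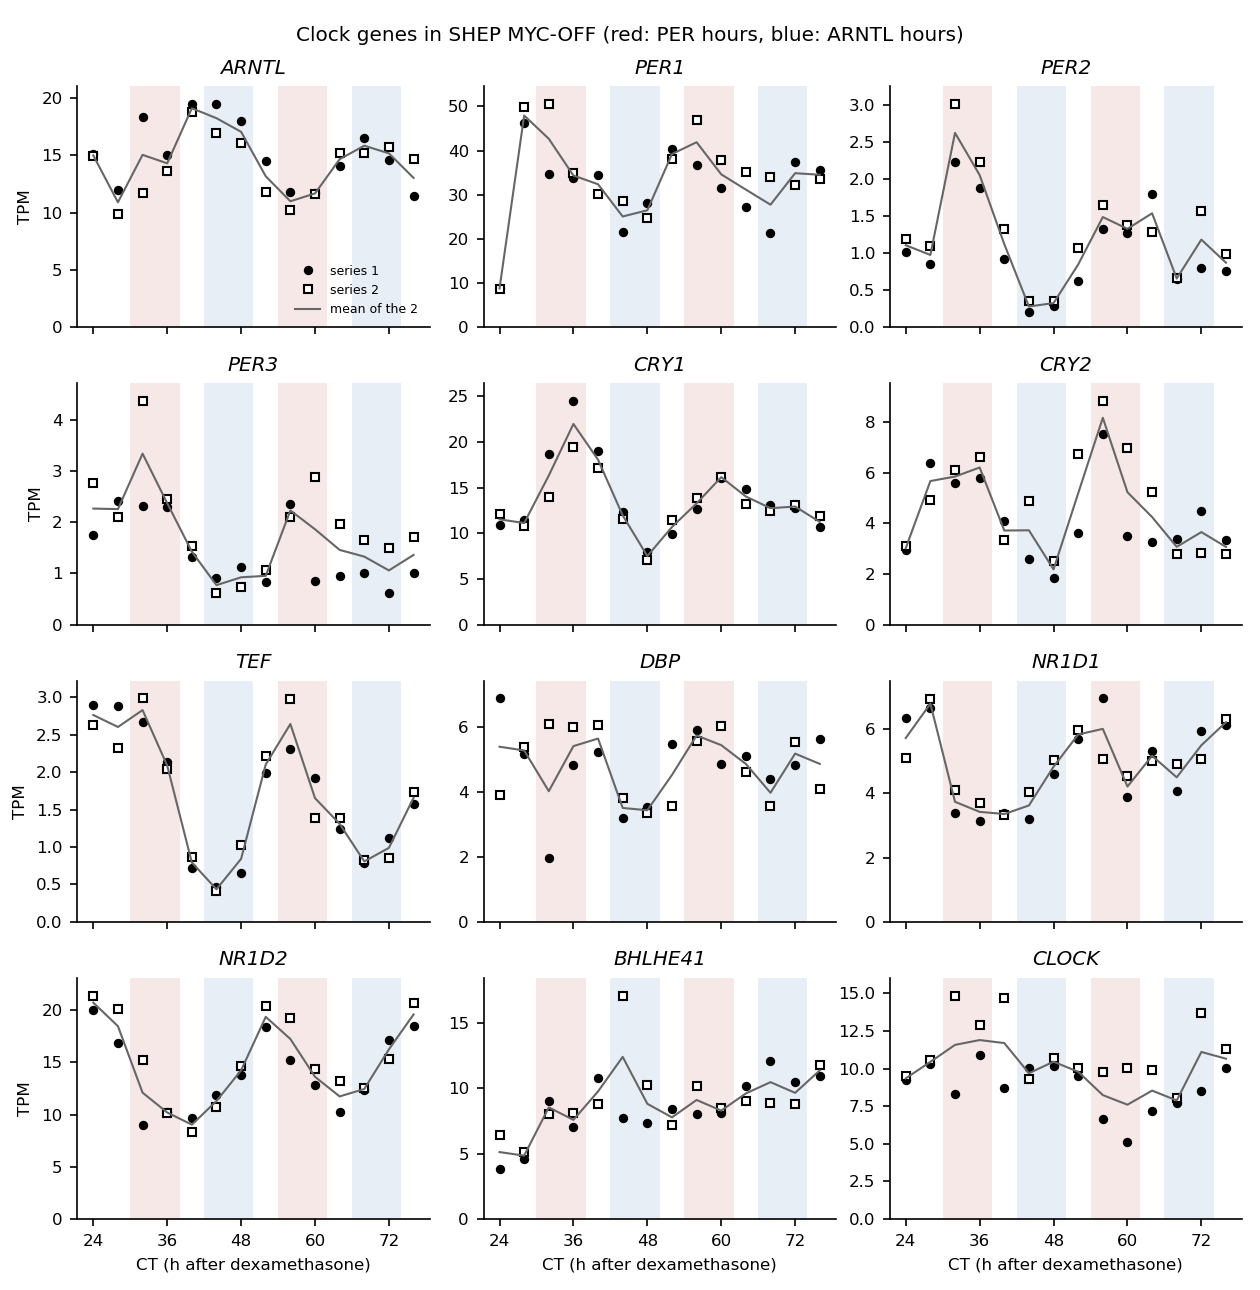
TPM (y axes, from 0) of 12 clock genes against CT in hours in the 28 SHEP MYC-OFF libraries; filled circles are series 1, open squares series 2, the line is their mean, and bands mark the PER hours (red) and the ARNTL hours (blue) and reach 2 h beyond the first and last hour of each. TEF and PER2 are high in the red bands and low in the blue ones in both series, and NR1D2 has its 4 highest means at CT24, CT28, CT52 and CT76, outside the bands.

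The negative arm encodes the proteins that inhibit CLOCK and BMAL1. PER2 stood at 1.28, 1.77 and 3.02 TPM (lowest, median and highest library) in the PER hours and at 0.210, 0.504 and 1.57 TPM in the ARNTL hours. Only the CT72 library of series 2, at 1.57 TPM, reached into the range of the PER hours. The PER2 difference was 0.87 ± 0.17 (SE) on the log2(TPM + 1) scale (limma, unadjusted p = 0.00014, adjusted p = 0.285). CRY2, a cryptochrome repressor, ranged from 3.49 through a median of 6.37 to 8.84 TPM against 1.85, 2.80 and 4.88 TPM, a difference of 0.87 ± 0.18 (adjusted p = 0.291). Its windows overlapped at the CT60 library of series 1, the lowest of the PER hours. PER3 had medians of 2.34 and 0.963 TPM, CRY1 16.1 and 12.4 TPM, and PER1 35.8 and 28.4 TPM. Their log2 differences were 0.70 ± 0.18, 0.56 ± 0.17 and 0.48 ± 0.13, with adjusted p-values of 0.585, 0.703 and 0.612. The windows overlapped for each of these 3. PER1, also a direct glucocorticoid target, was at 8.96 and 8.61 TPM at CT24 and at 46.1 and 49.8 TPM at CT28 in series 1 and 2, outside both windows.

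TEF, a PAR bZIP factor that binds D-boxes, was the clock gene with the lowest p. It stood at 1.38, 2.22 and 2.99 TPM in the PER hours and 0.409, 0.807 and 1.125 TPM in the ARNTL hours. Every PER-hour library was above every ARNTL-hour library, and the difference was 0.91 ± 0.13 (unadjusted p = 5.31e-06, adjusted p = 0.061). Windows without overlap occurred in 8 genes, 0.0562% of those tested. DBP, of the same family, had medians of 5.73 and 3.69 TPM and a difference of 0.42 ± 0.15 (adjusted p = 0.793), and its windows overlapped. Without the CT term, and in the 24 h cosine fit given below, DBP did not reach an unadjusted p under 0.05. The lowest PER-hour library of DBP, CT32 of series 1 at 1.96 TPM, was below every ARNTL-hour library. NFIL3, the D-box repressor, stood at medians of 15.2 and 15.4 TPM, a difference of -0.063 ± 0.058.

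ARNTL, the partner of CLOCK, showed the opposite order. It stood at 10.2, 11.8 and 18.4 TPM in the PER hours and 14.6, 16.3 and 19.5 TPM in the ARNTL hours, a difference of -0.47 ± 0.071 (adjusted p = 0.061). The overlap came from CT32 and CT36 of series 1, at 18.4 and 15.01 TPM, while the other 6 PER-hour libraries were below every ARNTL-hour library. Without CT32 of series 1 the adjusted p of ARNTL was 0.012. CLOCK had medians of 9.94 and 9.70 TPM, with a difference of -0.46 in series 1 and 0.10 in series 2. ARNTL2, a paralog, had medians of 32.5 and 30.1 TPM (-0.056 ± 0.079), with windows that overlapped.

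The windows overlapped for the nuclear receptors. The differences were 0.062 ± 0.12 for NR1D1, 0.10 ± 0.13 for NR1D2 and 0.025 ± 0.21 for RORA, and the sign of each turned when the CT term was left out (-0.085, -0.050 and -0.034). The DEC repressors, which compete for E-boxes, had differences of 0.11 ± 0.067 for BHLHE40 and -0.23 ± 0.15 for BHLHE41, with overlapping windows. Without CT44 of series 2, at 17.1 TPM, the BHLHE41 difference was -0.057.

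A 24 h cosine and sine over all 28 MYC-OFF libraries gave each gene a peak hour and an amplitude (the height of the peak above the fitted mean, on the log2 scale). At an unadjusted p under 0.05, 9 of the 16 clock genes and 9.81% of 14264 genes passed. NR1D2, TEF and CRY1 also passed an adjusted p of 0.05, with 0.0052, 0.0052 and 0.0075, among 9 genes in all. NR1D1 and NR1D2 peaked first, at CT27.4 ± 0.8 and CT27.4 ± 0.6 (SE), ahead of the PER hours. TEF followed at CT31.2 ± 0.5, 3.79 ± 0.75 h after NR1D2. PER1, PER3, CRY2 and PER2 came at CT32.9, CT33.3, CT33.6 and CT34.3, and no gap between neighbours among these 4 exceeded its standard error. CRY1 peaked at CT36.9 ± 0.6, 2.58 ± 0.89 h after PER2, and ARNTL at CT43.3 ± 0.7, 6.46 ± 0.92 h after CRY1. The genes share the same libraries, so the standard errors of the gaps treat as separate what may vary together. The largest of these 9 amplitudes were 0.52 for TEF and 0.50 for PER1, and the smallest was 0.26 for ARNTL. The PER1 fit includes CT24, where PER1 stood at 8.96 and 8.61 TPM in series 1 and 2. At the same hour of later days it stood at 28.2 and 24.8 TPM (CT48) and 37.45 and 32.3 TPM (CT72). How far the PER1 amplitude rests on CT24 was not tested.

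**Figure D2:**
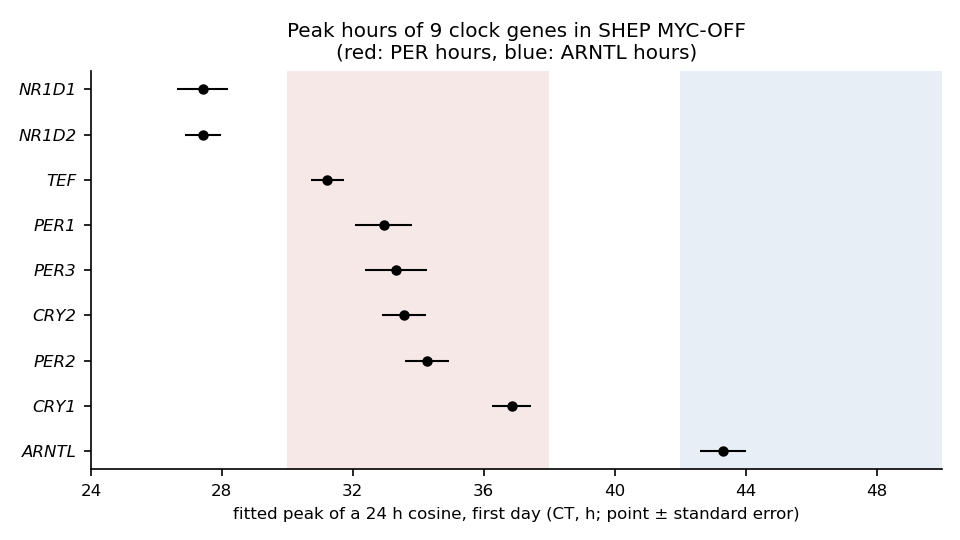
Fitted peak of a 24 h cosine (x axis, CT in hours on the first day; points with standard error) for the 9 clock genes with an unadjusted p under 0.05 over 28 SHEP MYC-OFF libraries, with the PER hours in red and the ARNTL hours in blue, each band reaching 2 h beyond the first and last hour. The REV-ERB genes peak near CT27.4, before the red band, and TEF, the PER genes and the CRY genes follow from CT31.2 to CT36.9, of which TEF is earlier than CT32 and CRY1 later than CT36. ARNTL peaks at CT43.3, before CT44.

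Libraries that neither window used gave another view of the same clock. CT28, CT52 and CT76 were set against CT40 and CT64, 10 libraries whose hours lie between the windows and have the same mean CT in both groups. Here 0 genes were called, 6.48% of 14302 genes had an unadjusted p under 0.05, and 8 of 17 clock genes did. NR1D2, whose windows overlapped above, differed by 0.84 ± 0.097 (unadjusted p = 1.86e-05, adjusted p = 0.266) and NR1D1 by 0.49 ± 0.13 (unadjusted p = 0.0042). NR1D2 stood at 16.9, 20.1, 18.4, 20.4, 18.5 and 20.7 TPM in the 6 earlier-phase libraries and 9.71, 8.38, 10.3 and 13.2 TPM in the other 4. TEF (0.61 ± 0.13) and PER1 (0.34 ± 0.089) were also higher at CT28, CT52 and CT76, and CRY1 (-0.49 ± 0.098), ARNTL (-0.42 ± 0.14), BHLHE41 (-0.31 ± 0.13) and PER2 (-0.29 ± 0.11) were lower. Each of these had an unadjusted p under 0.05, and none passed the adjusted threshold.

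The window difference was also fitted in each series alone. Over 13940 genes the differences of series 1 and series 2 had a Pearson r of 0.016, and 49.3% had the same sign. Genes are not independent replicates, and the windows of 1 series come from 1 culture experiment. Of the 16 clock genes 10 had the same sign, and these included the 8 named above. Those 8 were named from the fit of both series together, which favours the same sign in each, so their agreement is no independent evidence. PER2 differed by 0.87 and 0.87, TEF by 0.95 and 0.87, CRY2 by 0.81 and 0.94, CRY1 by 0.54 and 0.59, and ARNTL by -0.46 and -0.48 in series 1 and 2. CLOCK, RORA, NR1D1, NR1D2, ARNTL2 and NFIL3 had opposite signs in the series.

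**Figure D3:**
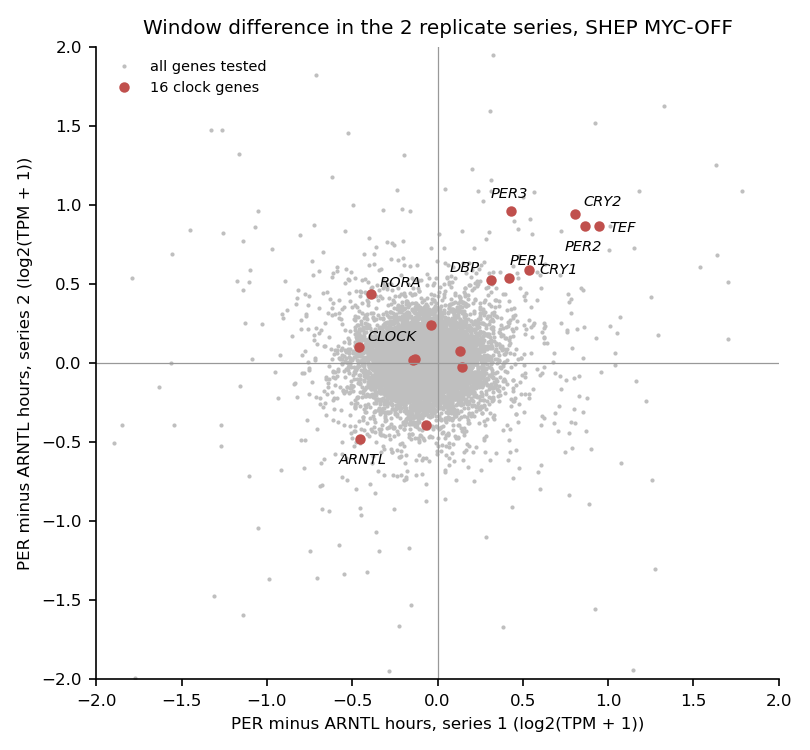
PER minus ARNTL hours on the log2(TPM + 1) scale in series 1 (x) and series 2 (y); grey points are all 13940 genes, red points the 16 clock genes, and 16 genes lie outside the axes at 2 either way. The grey cloud has no slope (r = 0.016), while TEF, PER2, CRY2, PER3, CRY1, PER1 and DBP lie in the upper right and ARNTL in the lower left. These named genes were picked by the fit of both series together, which favours the same sign in each.

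The days were compared after the data had been seen, in fits without a CT term. Within a day every PER hour precedes every ARNTL hour. A single-day difference therefore cannot be told apart from a change with time in culture. On the first day (CT32 and CT36 against CT44 and CT48) PER2 was the 1 gene called, and 7.97% of genes had an unadjusted p under 0.05. PER2 went from 2.23 and 3.02 TPM at CT32 to 0.210 and 0.352 TPM at CT44 in series 1 and 2. Its difference was 1.35 on the first day and 0.35 on the second (unadjusted p of the difference between days 2.47e-05, adjusted p = 0.351). CRY1 went from 0.92 to 0.18 (unadjusted p = 0.00804). The differences of CRY2 (0.88 and 0.78), TEF (1.084 and 0.71), PER1 (0.55 and 0.30) and DBP (0.28 and 0.25) had unadjusted p-values between days of 0.756, 0.109, 0.274 and 0.926. Of all genes, 8.53% had an unadjusted p under 0.05 for the difference between days, and 2 of the 16 clock genes did.

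In SHEP MYC-ON, at the same hours, 0 genes were called and 3.59% of 14316 genes had an unadjusted p under 0.05. The 6 of 16 clock genes that did were CRY2 (0.49 ± 0.13), PER2 (0.43 ± 0.11), TEF (0.31 ± 0.12), CLOCK (0.23 ± 0.088), PER3 (0.22 ± 0.10) and CRY1 (0.18 ± 0.066), all higher in the PER hours. ARNTL stood at medians of 2.75 and 3.11 TPM in the PER and ARNTL hours of MYC-ON, a difference of -0.073 ± 0.14. A test of how far MYC-OFF and MYC-ON differed in this contrast gave 0 genes called and 6.2% of 14381 genes at an unadjusted p under 0.05. In series 2 of MYC-ON the libraries of CT60, CT68 and CT72 stood apart in the slope of level on GC content, at -0.249, -0.280 and -0.294 log2 units per 10 percentage points, against -0.064 to 0.066 in the MYC-OFF windows. CT68 and CT72 there had 24896 and 25484 genes above 0, and 17.1% of TPM at CT72 was mitochondrial. The part of these in the MYC-ON values was not tested. The difference between conditions was 0.60 ± 0.18 for TEF (unadjusted p = 0.00274, adjusted p = 0.773), and -0.39 ± 0.16 for ARNTL (unadjusted p = 0.0183). PER2, PER3, CRY1, CLOCK and BHLHE41 also had an unadjusted p under 0.05, which makes 7 of 16. CRY2, PER1 and DBP, with differences between conditions of 0.39 ± 0.23, 0.42 ± 0.23 and 0.23 ± 0.21, did not.

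**Figure D4:**
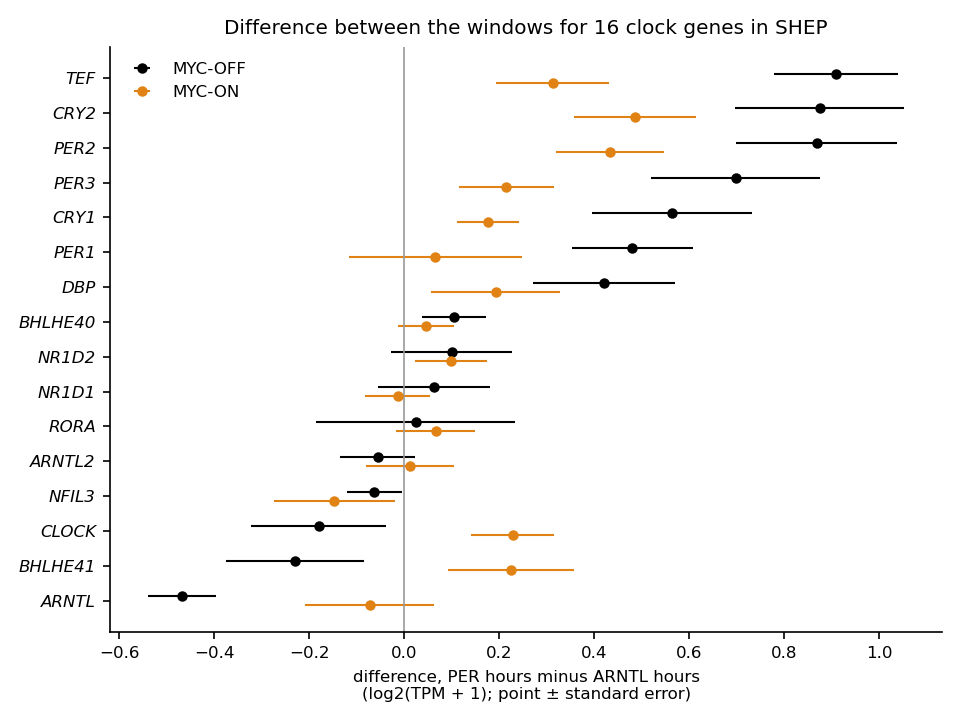
PER minus ARNTL hours for 16 clock genes in SHEP MYC-OFF (black) and MYC-ON (orange), as limma estimates on the log2(TPM + 1) scale with their standard errors. The 7 genes at the top lie above 0 in MYC-OFF, from 0.42 for DBP to 0.91 for TEF, and ARNTL lies at -0.47 in MYC-OFF and -0.073 in MYC-ON. These genes are singled out by their unadjusted p in MYC-OFF, a choice that favours larger differences there.

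In the SKNAS line, MYC-OFF at the same hours had 1 series of 4 against 4 libraries. There 0 of 18 clock genes and 0.836% of 14116 genes had an unadjusted p under 0.05, and the ARNTL difference was -0.74 ± 0.47. 1 library in each SKNAS window stood apart, with a median log2 level of 2.73 at CT56 (16241 genes above 0) and 2.86 at CT72, against 3.78 to 4.23 in the other 6. The median difference over all genes there was -0.32.

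Outside the clock, the genes named are those with the lowest p and the same sign in both series, up to 10 in each direction with the clock genes among them. OSGIN1, an oxidative stress-induced growth inhibitor, stood at 12.4, 12.6 and 14.4 TPM in the PER hours and 7.74, 9.73 and 13.1 TPM in the ARNTL hours. Its difference was 0.47 ± 0.078 (adjusted p = 0.107). The 4 ARNTL-hour libraries of the first day were at 7.74 to 9.34 TPM, and the windows overlapped on the second day only. C9orf116 had medians of 15.2 and 11.6 TPM (0.41 ± 0.074, adjusted p = 0.190). PLD6, a mitochondrial outer membrane phospholipase, had medians of 4.33 and 3.54 TPM, a difference of 0.29 ± 0.067 (0.072 on the second day alone). EPOP, a protein of the PRC2 complex, had medians of 5.58 and 5.14 TPM, a difference of 0.27 ± 0.061. It was 0.29 on the first day and 0.026 on the second. FAM85B (0.39 ± 0.099) and IMPDH1P10 (1.16 ± 0.23) complete the 10 beside TEF, PER2, CRY2 and PER3. IMPDH1P10 is a pseudogene that can share reads with its parent gene, so its value is uncertain, and it was 0.69 in series 2.

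On the lower side, LGALS8, a galectin, stood at 28.3, 32.2 and 37.4 TPM in the PER hours and 28.9 to 42 TPM, with a median of 35.03 TPM, in the ARNTL hours. Its difference was -0.27 ± 0.051 (adjusted p = 0.285), and -0.090 on the second day alone. MYH15, a myosin heavy chain, differed by -0.29 ± 0.059, but by -0.0017 on the first day and -0.19 on the second in fits without a CT term. DDX59, a DEAD-box helicase, differed by -0.27 ± 0.056. PDE8A, a cyclic AMP phosphodiesterase, and ATG4C, an autophagy protease, differed by -0.20 ± 0.045 and -0.36 ± 0.084. HRCT1, TMEM218 and ALOX12-AS1 differed by -0.33, -0.20 and -0.39. ALOX12-AS1 is antisense, and its reads cannot be told apart from those of its partner where counting ignores strand. The windows of each of these genes overlapped.

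The 8 genes without overlap were found after their values were seen. The higher ones were TEF, the lysosomal acid phosphatase ACP2 (medians 27.97 and 25.1 TPM), the lysosomal sialidase NEU1 (38.02 and 33.8 TPM) and 1 entry with a clone name. Among the lower ones were the RNA helicase DDX5 (656 and 733 TPM), CYP4X1 (1.28 and 1.78 TPM) and 1 entry with a clone name. For ACP2 and NEU1 the differences were 0.16 ± 0.044 and 0.13 ± 0.037, for DDX5 -0.17 ± 0.046, and for CYP4X1 -0.32 ± 0.085. Of the lysosome list, NEU1 was the 1 gene of 28 with an unadjusted p under 0.05, beside 5.51% of all genes. The list had 11 of 28 above 0 and a median of -0.0070.

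The G2 and mitosis list had the lowest median difference of any list. All 32 of its genes were below 0, with a median of -0.21, against 8715 of 14238 genes below 0 and a median of -0.025 over all genes. Of the 32, 5 had an unadjusted p under 0.05, beside 4.05% of all genes lower at that p. The 5 were CDCA3 (-0.40 ± 0.14), HMMR (-0.35 ± 0.11), NEK2 (-0.31 ± 0.14), CCNB2 (-0.28 ± 0.12) and CDC20 (-0.25 ± 0.11). CCNB1, the cyclin that drives entry into mitosis, had medians of 126 and 148 TPM and a difference of -0.23 ± 0.12. These genes move together through the cell cycle, so their count is not a count of independent results. Bulk RNA cannot tell fewer cells in G2 or mitosis from less RNA per such cell.

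The median was closer to 0 without series 1 (-0.10, 30 of 32 below 0) and without CT56 of series 1 (-0.13). The G2 and mitosis difference was not alike on both days. Within a day the PER hours all precede the ARNTL hours, so window and time in culture cannot be told apart in the single-day values. On the first day 12 of 32 genes were below 0, 0 had an unadjusted p under 0.05, and the median was 0.034. On the second day, where 8.01% of all genes had an unadjusted p under 0.05, all 32 were below 0, 29 had an unadjusted p under 0.05 and the median was -0.45. The difference between days itself had an unadjusted p under 0.05 for 24 of the 32, beside 8.53% of all genes, such as PLK1 (0.094 and -0.61, p = 0.000969) and CDC20 (0.028 and -0.51, p = 0.0017). None passed the adjusted threshold. Their mean level, on the log2(TPM + 1) scale, was lowest at CT56 in both series, 4.73 and 5.08, and was 5.50 and 5.49 at CT72. It was already low at CT48 (4.89 and 5.11), in the ARNTL hours of the first day. In MYC-ON the 32 genes had a median of 0.092, and 8 of 32 had an unadjusted p under 0.05 for the difference between conditions, beside 6.2% of all genes. S phase genes (the cell cycle S list) had a median of 0.054, with 21 of 28 above 0. Of the 28, 1 was higher at an unadjusted p under 0.05, beside 1.46% of all genes. Without CT48 of series 1 their median was -0.018, with 9 of 28 above 0, and without CT48 of series 2 it was -0.0037, with 12 of 28. Their median was 0.22 on the first day, with 25 of 28 above 0, and -0.17 on the second, with 27 of 28 below 0. The difference between days had an unadjusted p under 0.05 for 16 of the 28, beside the same 8.53%.

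**Figure D5:**
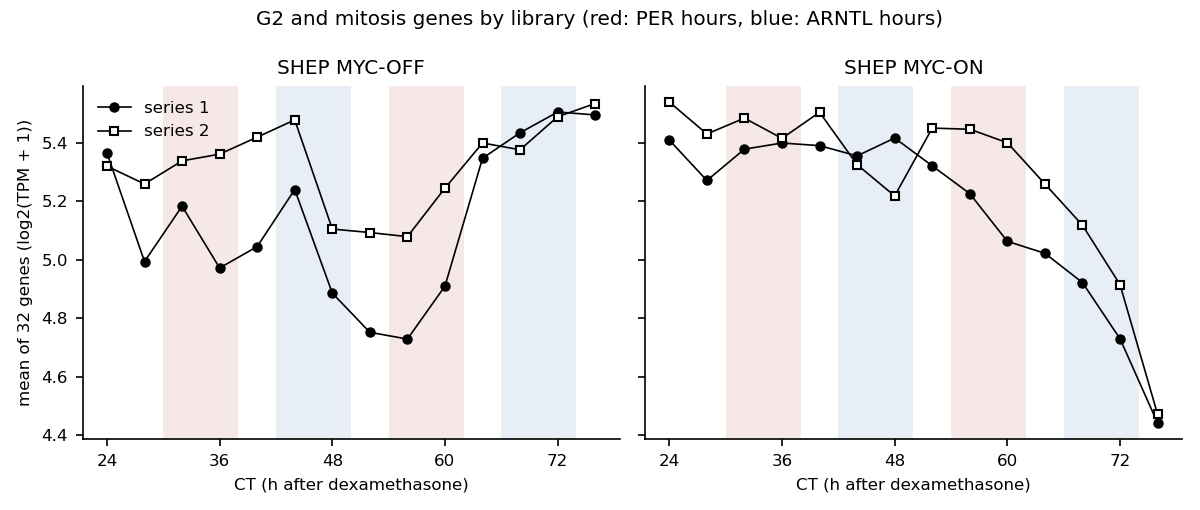
Mean of 32 G2 and mitosis genes per library (y axis, log2(TPM + 1), not starting at 0) against CT in hours in SHEP MYC-OFF and MYC-ON; filled circles are series 1, open squares series 2, with the PER hours in red and the ARNTL hours in blue. In MYC-OFF both series are lowest at CT56, and in MYC-ON both are lowest at CT76.

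Among the other lists, heat shock genes had 13 of 15 above 0, with a median of 0.080, and 4 with an unadjusted p under 0.05, all higher, beside 5523 of 14238 genes above 0 and 1.46% higher at that p. These were HSPA1B (0.27 ± 0.071), HSPA1A (0.30 ± 0.10), HSPH1 (0.11 ± 0.049) and DNAJB1 (0.12 ± 0.053), chaperones and a cochaperone. HSPA1A and HSPA1B are near-identical copies, and their split of reads is uncertain. Without series 2, 10 of 15 were above 0 and the median was 0.013. On the second day alone the median was -0.0070. Of 18 clock-controlled outputs 4 were higher at that p, beside the same 1.46%, with a median of -0.0047, among them TSC22D3, a glucocorticoid-induced zipper protein (0.41 ± 0.12), the cold-shock protein RBM3 (0.13 ± 0.048) and HSPH1. Without series 1, without series 2, or with means of neighbouring CTs, 1 of the 18 was. Of 17 glucocorticoid targets 2 were, PER1 and TSC22D3. Of 17 clock modifiers, the kinases, ligases and cofactors of the clock proteins, 0 were, and 15 were below 0 with a median of -0.034.

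Several lists had no gene at an unadjusted p under 0.05. MYC targets had 0 of 20 genes at an unadjusted p under 0.05 and a median of 0.0032, ribosomal proteins 0 of 25 and 0.016, and oxidative phosphorylation 0 of 27 and 0.0059. Mitochondrially encoded genes had 12 of 13 below 0 and a median of -0.071, with 0 at that p, but 5 of 13 below 0 and a median of 0.029 without series 1. SRF and actin targets had 13 of 17 above 0 and a median of 0.070, with 0 at that p. Of 14 p53 targets 11 were below 0, with a median of -0.083 and 1 at that p, and of 14 interferon response genes 12 were below 0, with a median of -0.037 and 2 at that p, beside 4.05% of all genes lower. The mitochondrially encoded share of TPM ranged from 6.12% to 8.69% in the libraries of series 1 and from 8.67% to 13.7% in those of series 2. The nutrient transporters SLC7A5 and SLC3A2, the subunits of an amino acid exchanger, differed by 0.079 ± 0.13 and 0.042 ± 0.086, and the glucose transporter SLC2A1 by 0.015 ± 0.092. MYCN differed by -0.12 ± 0.094 and MYC by 0.072 ± 0.12, with windows that overlapped. All 3 epithelial markers tested were above 0, with a median of 0.15. KRT18, one of them, differed by 0.22 ± 0.096 (unadjusted p = 0.0355), while EPCAM and CDH1 were at means of 0.233 and 0.203 TPM.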

How the data were processed

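The authors quantified paired-end reads of poly(A) libraries with Salmon 1.3.0, per the labels, and deposited TPM per gene for all libraries, with transcripts on GRCh38. TPM keep no read depth, so the depth behind each value is unknown and no count model or counting interval was used. Genes with a mean of at least 1 TPM over the libraries of a fit were tested on log2(TPM + 1) with limma 3.58.1 in R 4.3.3, with window, series and linear CT as terms and Benjamini-Hochberg adjustment over all genes tested. A difference on this scale understates the change of low genes. Pandas 2.3.3 and matplotlib 3.10.9 made the tables and plots. The tests were checked on simulated data.

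The hours, lists and tests were chosen with earlier results of these data known. Named were all clock genes, and per direction 10 genes with the lowest p among those of 1 sign in both series, since none was called. Passed over were 1 higher and 2 lower entries with clone names. Replicate numbers name the 2 biological series, and the series was kept as a block. Deviations from the window means correlated by 0.04 on average within a series and by -0.16 between series. Libraries of 1 series come from 1 experiment, so p-values measure the spread between libraries, which may be technical. SLC7A5, SLC3A2, SLC2A1, MYCN and MYC were named whatever their values. Values of some genes that these rules name are not reported here. The single days, and the difference between them, were compared after the data had been seen. Promoter sequences are from RefSeq, matched by symbol or synonym.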

Additional observations from a re-analysis of the deposited data

Results flagged for a closer look

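In 4 of the 70 groups of 8 libraries, 1 library stood apart by Dixon's test (gap to the nearest library over the range of the group, critical value 0.526), and chance gives about 1 in 20. PER2 in the ARNTL hours had CT72 of series 2 at 1.57 TPM against 0.801 TPM for the next (ratio 0.565). DBP in the PER hours had CT32 of series 1 at 1.96 against 4.82 TPM (0.694). The same library was highest for MYC, at 17.7 against 13.2 TPM (0.587). SLC2A1 in the ARNTL hours had CT48 of series 1 at 238 against 177 TPM (0.599). The causes were not tested.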

How the results depend on the processing

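The depth of each single library is not known, and p-values measure the spread between libraries of 2 series. Of 1174 values of 36 named genes under the alternatives, 1111 kept their direction and side of the threshold, 16 newly passed it and 47 turned in sign. The count of genes called higher and lower, 0 and 0, became 1 and 1 without the CT term, 3 and 1 with a quadratic one, 2 and 1 with all PER hours against CT44 and CT48 alone (equal mean CT), 1 and 0 after median-of-ratios rescaling, 3 and 3 with the cosine, 1 and 0 on the first day and 1 and 1 on the second. Without the replicate block 1 gene, TEF, was called (adjusted p = 0.037), and the block changed no other call. Leaving out a library or a series gave 0 to 1 in each direction, TEF without CT60 of series 2 and ARNTL without CT32 of series 1. The 208 higher genes at an unadjusted p under 0.05 became 479 with no filter on low values, 398 without the CT term, 397 after rescaling, 324 with the cosine, 597 on the first day and 401 on the second. The 577 lower became 1024 with no filter and 227 to 1043 when a series or library was left out, the lowest without series 1 and the highest without series 2. The 8 clock genes became 3 of 9 tested at a mean of at least 5 TPM, and 5 to 8 with a library or series left out, 5 without series 2. The 892 genes differing between MYC-OFF and MYC-ON became 1621 with no filter, 1426 without the CT term and 583 to 857 with a series left out, 583 without series 1. With the GC slope of each library as a term, 0 genes were called and the lowest adjusted p was 0.317. The G2 and mitosis median of -0.21 was -0.10 without series 1, -0.31 without series 2, -0.068 against CT44 and CT48 alone and -0.13 with the GC slope. The causes were not tested.

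Signs turned for 11 genes whose windows overlapped. With a series or library left out, the lowest and highest values were -0.46 and 0.10 for CLOCK, -0.13 and 0.023 for ARNTL2, -0.056 and 0.15 for NR1D1, -0.039 and 0.24 for NR1D2, -0.39 and 0.44 for RORA, and -0.14 and 0.018 for NFIL3. They were -0.018 and 0.17 for SLC7A5, -0.020 and 0.098 for SLC3A2, -0.035 and 0.094 for SLC2A1 and -0.035 and 0.14 for MYC. Without the CT term ARNTL2 was 0.047, NR1D1 -0.085, NR1D2 -0.050 and RORA -0.034. Against CT44 and CT48 alone, RORA was -0.0015, SLC7A5 -0.016, SLC3A2 -0.023 and SLC2A1 -0.018. With CT24 added NR1D1 was -0.12, NR1D2 -0.17, RORA -0.021 and SLC2A1 -0.097, and with the cosine they were -0.075, -0.11, -0.047 and -0.062. With the GC slope ARNTL2 was 0.012, NR1D1 -0.041, NR1D2 -0.021, SLC7A5 -0.0024, SLC3A2 -0.033 and SLC2A1 -0.040. On the first day CLOCK was 0.18, ARNTL2 0.038, NR1D1 -0.18, NR1D2 -0.20, RORA -0.11 and MYCN 0.067, and on the second ARNTL2 was 0.057.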
